A study of Mus musculus with 4 samples.

Results

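The genes described here are 10 markers of T cells and natural killer (NK) cells: Cd3d, Cd3e, Cd3g, Cd4, Cd8a, Nkg7, Gzma, Gzmb, Prf1 and Klrb1c. They were taken as a named list from the 20659 genes that the array's RefSeq accessions could be matched to, and all 10 had at least one probe. Of these, 9 gave a signal well above background on 2 or more of the 4 arrays, and Klrb1c did not. Their RNA was measured in infarcted hearts of male mice, taken 5 days after the left anterior descending coronary artery had been tied off. The KO group (replicates 3 and 4) held VE-Cad-Cre-S1pr1 fl/fl mice, labelled endothelial S1pr1 knock-out, and the WT group (replicates 1 and 3) held wild-type mice. Both groups were infarcted, so no uninjured heart entered the comparison. Age and strain were not given in the sources used here, and nothing in the labels tells whether the arrays of a group hold RNA of separate hearts. The p-values therefore reflect the spread between these arrays alone, part of which may be technical.

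T cells recognise antigen through a receptor that signals by way of the CD3 chains, with CD4 or CD8 as co-receptor on helper and cytotoxic cells. Cytotoxic T cells and NK cells kill targets by releasing perforin, which opens the target's membrane, and granzymes, proteases that enter and trigger cell death. Few T and NK cells live in the resting mouse heart, and they enter the infarct within days of injury. The receptor S1PR1 is what T cells use to leave the thymus and lymph nodes for the blood. The Cre here is driven by the promoter of VE-cadherin, an endothelial adhesion protein that is also made by the embryonic endothelium from which blood stem cells arise. Whether any T or NK cell had lost S1pr1 was not measured.

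A level is a log2 processed signal from which the 75th percentile of its array was subtracted. A difference is the KO mean minus the WT mean of such levels. S1pr1 itself was at -2.82 and -2.40 on the KO arrays (replicates 3 and 4) and at 0.27 and 0.86 on the WT arrays (replicates 1 and 3), a difference of -3.17 (SE 0.39; limma adjusted p = 0.741). All 8 cardiomyocyte markers were well above background on every array. WT replicate 1 stood apart in 2 ways. A lower share of its probes was well above background (54.3%, against 69.4% to 73.4% on the other arrays), and its cardiomyocyte marker mean was 1.03, where the 2 KO arrays had 5.39 and 6.29 and WT replicate 3 had 5.63. The arrays of the KO and WT groups occupied different positions of 1 slide, so position and genotype cannot be told apart. In bulk tissue, fewer cells of a type and less RNA per cell cannot be told apart either.

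None of the 9 measured genes passed the test between genotypes. The differences spanned -1.74 for Gzmb to 0.51 for Cd3e, and limma's adjusted p over 22925 features was between 0.741 and 0.973 for them. The median difference of the 9 genes was 0.08, and that of all features was also 0.08. The granzymes Gzmb and Gzma had the largest differences of the 9 genes, both lower in KO. At an adjusted p under 0.05, limma called 0 of the 9 genes and 0% of all features in either direction. At an unadjusted p under 0.05, 0 of the 9 genes were higher and 0 lower, where 1.31% of all features (301) were higher and 1.4% (322) lower, 2.72% in all. With median scaling those counts over all features were 255 and 417. The arrays of KO and WT were separate for 3 of the 9 genes, 2 higher in KO (Cd4 and Nkg7, where 16.9% of all features were) and 1 lower (Prf1, where 17.4% were). Over both directions this share was 34.3% of all features. With 2 arrays against 2, an exact two-sided permutation test cannot go below p = 0.333, which those 3 genes reached.

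**Figure D1:**
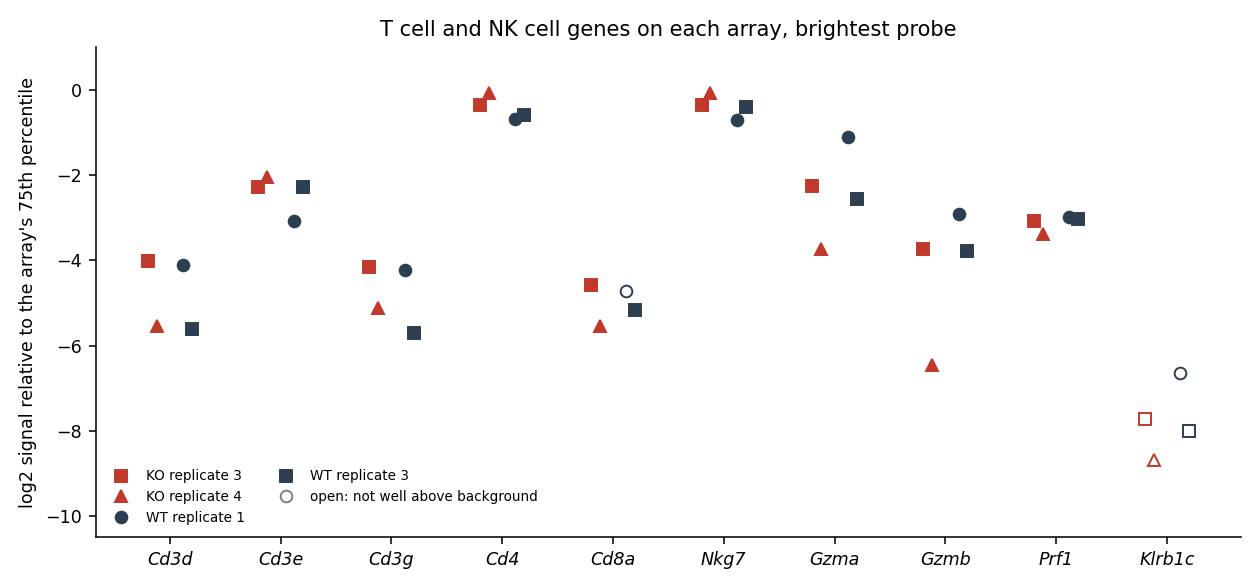
Log2 signal relative to the array's 75th percentile (vertical axis) of the brightest probe of each of the 10 genes, KO arrays in red to the left and WT arrays in dark blue to the right, with open symbols where the probe was not well above background. Cd4 and Nkg7 lie close together on all 4 arrays, Gzmb ranges from -2.92 to -6.46, and Klrb1c is open throughout.

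The CD3 chains did not share one pattern over the arrays. Cd3d, the delta chain, was at -4.00 and -5.55 on KO replicates 3 and 4, and at -4.10 and -5.60 on WT replicates 1 and 3. Cd3g, the gamma chain, was at -4.16 and -5.12 in KO, and at -4.22 and -5.71 in WT. Each genotype thus had one array with higher signal (KO replicate 3 and WT replicate 1) and one with lower signal for both genes, and the genotypes overlapped. Cd3e, the epsilon chain that pairs with each of the other chains, was at -2.27 and -2.04 in KO, and at -3.07 and -2.27 in WT. Its lowest array was WT replicate 1, one of the higher arrays for Cd3d and Cd3g.

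The genotype means of Cd3d were -4.77 ± 1.09 in KO and -4.85 ± 1.06 in WT (SD, n = 2 each), which differ by 0.08 (SE 0.79, 95% interval -2.05 to 2.21). For Cd3g they were -4.64 ± 0.68 in KO and -4.97 ± 1.06 in WT, a difference of 0.33 (SE 0.68, interval -1.49 to 2.15). For Cd3e they were -2.16 ± 0.16 in KO and -2.67 ± 0.57 in WT, a difference of 0.51 (SE 0.41, interval -0.60 to 1.63). The adjusted p in limma was 0.973 for Cd3d, 0.860 for Cd3g and 0.741 for Cd3e.

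The likeness of Cd3d and Cd3g was measured as the root mean square difference between their levels over the 4 arrays, after each gene was centred on its own mean. It was 0.24 for Cd3d against Cd3g, which placed Cd3g 17 among 12918 named genes well above background on all arrays, counted from the closest to Cd3d. For Cd3d against Cd3e it was 1.05, and Cd3e was placed 9814. Cd3e was closer to the brighter probes of Nkg7 (0.20) and Cd4 (0.26). With 4 points per gene this is a description only. On KO replicate 4 and WT replicate 3, Cd3d and Cd3g were dim. Their levels there lay below -4.59, the lowest well-measured level on WT replicate 1.

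**Figure D2:**
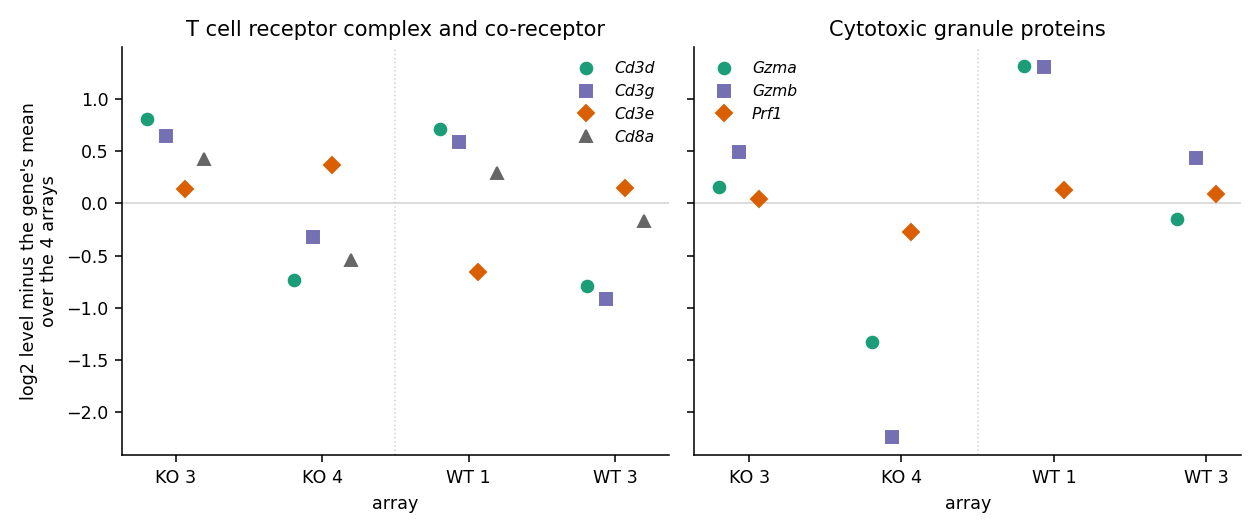
Log2 level minus the gene's mean over the 4 arrays (vertical axis) on each array (horizontal axis, KO left of the dotted line and WT right of it), for CD3 chains and Cd8a in the left panel and for granule proteins in the right panel. Cd3d and Cd3g are high on KO 3 and WT 1 and low on KO 4 and WT 3, Cd3e does not share this, and Gzma and Gzmb are highest on WT 1 and lowest on KO 4.

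Cd3d and Cd3g are next to each other on chromosome 9 and are transcribed away from one another, with Cd3e as the following gene. Their start regions are shown because these neighbours had like patterns over the arrays and the third gene of the cluster did not share them. Each CD3 gene was read by 1 probe. Whether the pattern of Cd3e is that of the gene or of its probe was not tested. Each window runs from 250 bases before to 50 bases after the gene's start in RefSeq's GRCm38.p6 table, and 854 bases lie between the windows of Cd3g and Cd3d. The windows are chr9:44981536-44981835 (plus strand) for Cd3d, chr9:44980382-44980681 (minus strand) for Cd3g and chr9:45009562-45009861 (minus strand) for Cd3e. Capitals mark matches on either strand to 7 motifs of factors active in T and NK cells, listed after the sequences.
Cd3d: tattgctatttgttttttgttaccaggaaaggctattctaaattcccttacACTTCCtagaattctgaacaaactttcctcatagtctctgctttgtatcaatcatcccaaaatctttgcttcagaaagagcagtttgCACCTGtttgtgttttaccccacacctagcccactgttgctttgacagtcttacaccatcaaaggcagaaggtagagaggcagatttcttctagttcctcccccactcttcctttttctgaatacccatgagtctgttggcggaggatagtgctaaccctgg
Cd3g: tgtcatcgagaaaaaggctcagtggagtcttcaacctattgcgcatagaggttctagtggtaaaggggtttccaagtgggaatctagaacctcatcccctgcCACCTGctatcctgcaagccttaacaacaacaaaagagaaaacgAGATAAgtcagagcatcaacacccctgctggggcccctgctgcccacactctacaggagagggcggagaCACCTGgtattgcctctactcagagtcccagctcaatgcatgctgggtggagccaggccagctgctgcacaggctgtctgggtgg
Cd3e: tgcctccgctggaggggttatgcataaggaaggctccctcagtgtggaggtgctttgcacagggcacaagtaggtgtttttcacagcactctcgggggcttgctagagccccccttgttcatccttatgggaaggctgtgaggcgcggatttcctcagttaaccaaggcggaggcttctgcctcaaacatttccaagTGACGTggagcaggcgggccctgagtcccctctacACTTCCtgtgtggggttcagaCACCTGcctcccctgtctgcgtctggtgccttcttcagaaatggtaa

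On both strands, an E-box was searched for as CACCTG. The letters used for ETS factors were GGAAGT, those for RUNX factors were TGTGGT and those for GATA factors were AGATAA. For AP-1 the search used TGANTCA, where N stands for any base, for a CRE element it used TGACGT and for T-box factors it used TCACAC. No match overlapped another in these windows. The E-box letters were found in all 3 CD3 windows, once for Cd3d (112 bases before the start), at 2 places for Cd3g (148 and 35 bases before it) and once for Cd3e, just after the start. Of 32851 promoter windows of the same length, 20.2% held it. The ETS letters were found once each for Cd3d and Cd3e and are in 23.8% of windows, the GATA letters once for Cd3g (11.2% of windows) and the CRE letters once for Cd3e (7.51%). A match describes letters, not binding.

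The co-receptors were dim on the probes that could be checked against repeated spots. Cd8a, the alpha chain of CD8, has a probe printed at 10 spots per array, and its level was -4.57 and -5.54 on KO replicates 3 and 4, and -4.71 and -5.17 on WT replicates 1 and 3. On WT replicate 1 only 2 of its 10 spots were well above background. KO replicate 4 was the lowest array, and the genotypes overlapped. The SD between spots of 1 array was 0.053 and 0.109 on KO replicates 3 and 4. On WT replicates 1 and 3 it was 0.290 and 0.115. The range between arrays was 0.97, a measure unlike an SD, and spots of 1 array do not hold the variation between hybridizations. The difference between genotypes was -0.12 (SE 0.47, 95% interval -1.39 to 1.15; limma adjusted p = 0.929). A second Cd8a probe, for another transcript accession, was not well above background on any array.

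Cd4, the co-receptor of helper T cells and also found on some dendritic cells, gave a bright and a dim probe. The brighter probe was at -0.35 and -0.08 in KO, and at -0.67 and -0.58 in WT, so both KO arrays lay above both WT arrays. The difference was 0.41 (SE 0.32, 95% interval -0.44 to 1.26; limma adjusted p = 0.741). The dimmer probe, printed at 10 spots, was at -6.46 and -5.71 in KO, and at -6.74 and -6.17 in WT, and was not well above background on WT replicate 1. On it the genotypes overlapped, with a difference of 0.37.

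Nkg7, a granule membrane protein of NK cells and cytotoxic T cells, also depended on the probe. On the brighter probe it was at -0.36 and -0.06 in KO, and at -0.70 and -0.39 in WT, with a difference of 0.34 (SE 0.34, 95% interval -0.57 to 1.24; limma adjusted p = 0.751). On the dimmer probe it was at -5.21 and -7.23 in KO, and at -4.95 and -6.40 in WT, and was well above background on KO replicate 3 and WT replicate 3 alone. The difference there was -0.54, of the opposite sign. The order of the arrays differed too: KO replicate 4 was the highest array on the brighter probe and the lowest on the dimmer one. Both probes carry the same accession. Among the 36 pairs of measured genes, the brighter probes of Cd4 and Nkg7 were the most alike over the arrays (root mean square difference 0.088).

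**Figure D3:**
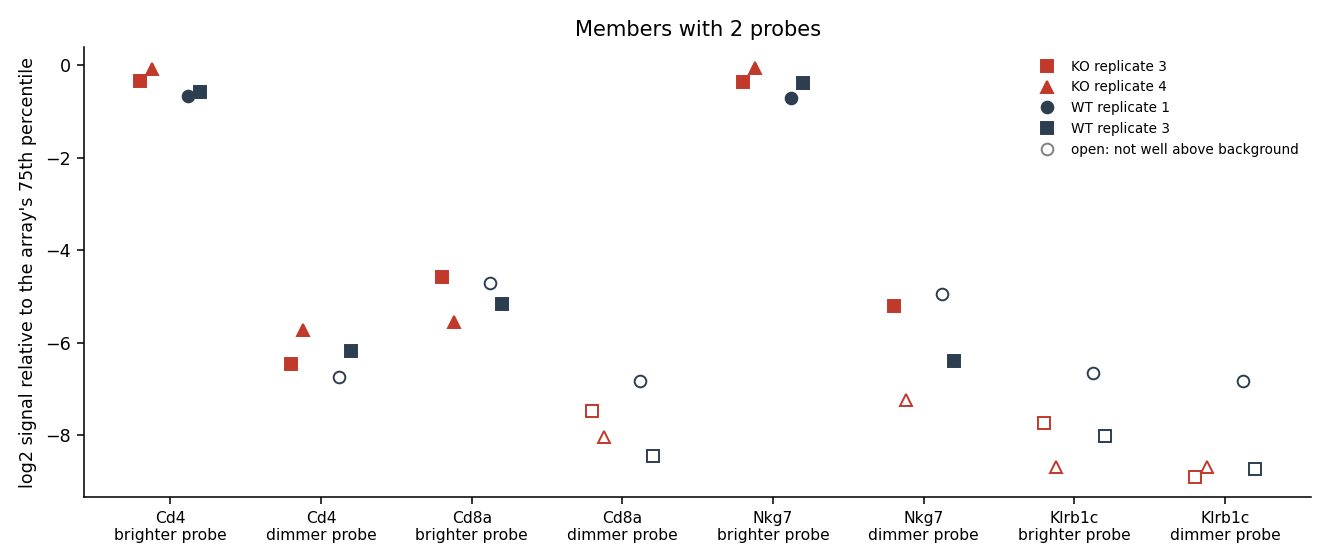
Log2 signal relative to the array's 75th percentile (vertical axis) of both probes of Cd4, Cd8a, Nkg7 and Klrb1c, KO in red to the left and WT in dark blue to the right, with open symbols where a probe was not well above background. The brighter Nkg7 probe has KO replicate 4 on top at -0.06, and the dimmer one has it at the bottom at -7.23.

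The granzymes were lower in KO on average, with wide spread. Gzma, the tryptase of cytotoxic granules, was at -2.25 and -3.74 on KO replicates 3 and 4, and at -1.09 and -2.56 on WT replicates 1 and 3. WT replicate 1 was the highest array and KO replicate 4 the lowest, while KO replicate 3 lay above WT replicate 3. The means were -3.00 ± 1.05 in KO and -1.83 ± 1.04 in WT (SD, n = 2 each), which differ by -1.17 (SE 0.77, 95% interval -3.25 to 0.91), with an adjusted p of 0.741 in limma and p = 0.667 in the exact two-sided permutation test.

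Gzmb, the granzyme that cleaves after aspartate and activates caspases, was at -3.73 and -6.46 in KO, and at -2.92 and -3.79 in WT. KO replicate 3 and WT replicate 3 were within 0.06 of each other, and KO replicate 4 was far below both. The means were -5.10 ± 1.93 in KO and -3.35 ± 0.62 in WT (SD, n = 2 each), which differ by -1.74 (SE 1.02, 95% interval -4.49 to 1.004). limma's adjusted p was 0.741, and the exact permutation test gave 0.667. Without KO replicate 4 the difference was -0.38, and without KO replicate 3 it was -3.11. For Gzma these values were -0.42 and -1.91, and without WT replicate 1 the Gzma difference was -0.43. With all signals raised to a common floor of -4.59, the lowest well-measured level on WT replicate 1, the Gzmb difference was -0.81, since its KO replicate 4 level lies below that floor.

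Prf1, which encodes perforin, varied less than both granzymes. It was at -3.07 and -3.39 in KO, and at -2.98 and -3.02 in WT. Both KO arrays lay below both WT arrays, by a small margin. The means were -3.23 ± 0.22 in KO and -3.00 ± 0.028 in WT (SD, n = 2 each), which differ by -0.22 (SE 0.32, 95% interval -1.09 to 0.64; limma adjusted p = 0.805). Its range over the 4 arrays was 0.40, where the median over all features was 0.99 and Gzma and Gzmb had 2.65 and 3.54.

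The start regions of Gzma at chr13:113100932-113101231 (minus strand) and Gzmb at chr14:56262285-56262584 (minus strand) are shown as the members with the largest differences, with the same motifs in capitals (RefSeq, GRCm38.p6).
Gzma: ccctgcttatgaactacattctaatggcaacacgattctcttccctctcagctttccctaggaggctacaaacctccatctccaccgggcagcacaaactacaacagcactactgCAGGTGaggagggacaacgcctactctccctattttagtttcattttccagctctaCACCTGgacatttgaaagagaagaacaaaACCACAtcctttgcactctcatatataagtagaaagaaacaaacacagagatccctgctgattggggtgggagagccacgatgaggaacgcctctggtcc
Gzmb: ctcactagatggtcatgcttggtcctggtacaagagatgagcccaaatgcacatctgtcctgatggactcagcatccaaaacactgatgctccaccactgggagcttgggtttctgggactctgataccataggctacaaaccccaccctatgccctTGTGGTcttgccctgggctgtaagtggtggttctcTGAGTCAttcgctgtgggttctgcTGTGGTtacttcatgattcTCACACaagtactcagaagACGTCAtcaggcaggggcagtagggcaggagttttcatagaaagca

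The RUNX letters were found once for Gzma, 50 bases before the start, and at 2 places for Gzmb, 93 and 34 bases before it, and 16.8% of all windows held them. Gzmb also held the AP-1 letters 58 bases before the start (7.81% of windows), the T-box letters 15 bases before it (14.5%) and the CRE letters just after it (7.51%). The E-box letters were found at 2 places for Gzma and not in this window of Gzmb.

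**Figure D4:**
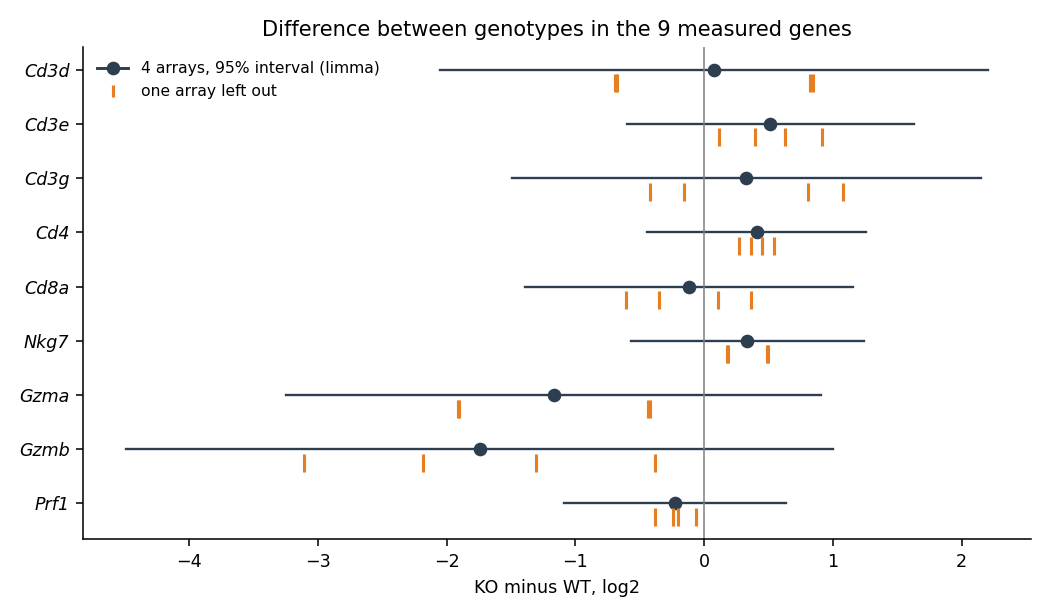
KO minus WT difference on the log2 scale (horizontal axis) for the 9 measured genes, with limma's 95% interval over 4 arrays (points and lines) and the 4 values obtained with one array left out (orange ticks). All 9 intervals cross 0, and the ticks of Cd3d, Cd3g and Cd8a fall on both sides of it.

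Klrb1c, a lectin-like receptor of NK cells, had 2 probes, and neither was well above background on any array. The brighter one was at -7.73 and -8.69 in KO, and at -6.65 and -8.02 in WT, all below the lowest level well above background on the same array (-7.11 and -6.60 on KO replicates 3 and 4, -4.59 and -6.59 on WT replicates 1 and 3). No difference can be given for it. Of the other NK cell receptors and regulators listed, Ncr1, Klrk1, Klrc1 and 7 more did not reach the filter either.

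The wider T cell and NK cell genes were examined in 8 lists holding 128 different genes, 90 of them measured. None was called over all features. In KO 28 had a higher mean and 62 a lower one (68.9% lower, against 44.4% of all features). At an unadjusted p under 0.05 in limma there were 1 higher and 7 lower (8.89%, against 2.72% of all features), and S1pr1 is one of the 7. The arrays of KO and WT were separate for 26 of the 90 (28.9%, against 34.3%). The balance of higher and lower means differed in several lists with single arrays left out. Without WT replicate 1, T cell receptor signalling had 10 genes higher and 3 lower, and T cell identity had 6 and 4. Helper, regulatory and activated T cell genes had 8 and 7, cytokines 6 and 1, and NK cell receptors 11 and 7. Still mostly lower were cytotoxic granule genes (4 and 9), sustaining cytokines (2 and 5) and trafficking genes (4 and 8). With all 4 arrays, the 10 macrophage markers measured all had a lower mean in KO. Their array means were 1.86 and 0.77 on KO replicates 3 and 4, and 2.75 and 1.78 on WT replicates 1 and 3. Without WT replicate 1, 6 of these 10 markers were lower and 4 higher. Their part in the lists below was not tested.

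Of 13 genes of T cell receptor signalling measured, 3 were higher and 10 lower in KO (median -0.11), and 0 were called. Without WT replicate 1 or without KO replicate 4 these counts were 10 higher and 3 lower. The balance of the next lists also differed without KO replicate 4, where 8 of 10 T cell identity genes, 10 of 15 genes of helper, regulatory and activated T cells and 7 of 7 cytokines had a higher mean in KO. Fyb and Lcp2, adaptors that myeloid cells also use, differed by -1.87 (SE 0.66) and -0.96 (SE 0.80), and the phosphatase Ptpn22 by -1.44 (SE 0.61). The costimulatory receptor Cd28 differed by 0.65 (SE 0.59). List means were -2.59 and -3.67 in KO, and -2.33 and -3.27 in WT, so KO replicate 3 and WT replicate 1 were the higher arrays. The same held for Cd3d, Cd3g, Gzma and the means of the NK cell list and the macrophage markers. WT replicate 1 was highest and KO replicate 4 lowest for this list, as for Gzma. Cd3d and Cd3g were highest on KO replicate 3 and lowest on WT replicate 3.

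Among T cell identity genes 5 of 10 were higher and 5 lower (median -0.16). Il7r, the receptor for the survival factor IL-7, was at -2.77 and -4.80 in KO, and at -0.72 and -1.10 in WT, a difference of -2.87 (SE 0.76; limma adjusted p = 0.741). The KO arrays lay below the WT arrays. Bcl11b, a transcription factor that holds T cell identity, had no well-measured signal in WT. Averaged over the WT arrays, it was at least 1.65-fold higher in KO. This bound sets the KO mean against, on each WT array, the lowest signal well above background or the probe's own, whichever is higher (limma adjusted p = 0.741, measured means -4.87 in KO and -6.79 in WT). On WT replicate 1 that lowest signal was -4.59, above the KO mean of Bcl11b, so no rise can be bounded against this array alone. The chromatin organiser Satb1 differed by 1.195 (SE 0.67) and Thy1, which fibroblasts also make, by -1.12 (SE 0.79).

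Of 15 genes of helper, regulatory and activated T cells, 6 were higher and 9 lower (median -0.20). The checkpoint receptor Havcr2, also made by myeloid cells, differed by -1.87 (SE 0.56) and the chemokine receptor Cxcr6 by -2.82 (SE 0.92). Cxcr6 was at -1.58 and -4.15 in KO, and at -0.0044 and -0.09 in WT. Il2ra, the high-affinity IL-2 receptor chain, differed by 0.80 (SE 0.34) and Ikzf2, a factor of regulatory T cells, by 1.13 (SE 0.55). Foxp3, which defines regulatory T cells, differed by -0.13 (SE 0.33) and had a well-measured signal on both KO arrays and 1 WT array. Of 16 T and NK cell cytokines only 7 were measured, 3 higher and 4 lower (median -0.04). Ifng, Il2, Il4, Il17a and 5 more were not. Il22 differed by 0.45 (SE 0.34), Lta by 0.47 (SE 0.36), Tnfsf10, which encodes the death ligand TRAIL, by 0.53 (SE 0.52) and Ltb by -0.86 (SE 1.49).

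The other cytotoxic granule genes were lower in KO for 10 of 13 and higher for 3 (median -0.40), and between 9 and 11 of the 13 were lower with any 1 array left out. The median then ranged from -0.83 without WT replicate 3 to -0.11 without WT replicate 1. Gzmc differed by -1.35 (SE 0.31) and had a well-measured signal on both KO arrays and 1 WT array. Gzme had no well-measured signal in KO and was at least 6.78-fold lower in KO, a bound of the same kind (limma adjusted p = 0.741, measured means -7.03 in KO and -4.09 in WT). Gzme was at -2.55 and -5.63 on WT replicates 1 and 3, so the bound rests mainly on WT replicate 1. With WT replicate 3 alone the bound would be smaller. The granzymes sit close in sequence to one another and may share signal. Ctsc, the protease that activates granzymes and is also made by macrophages, differed by -1.19 (SE 0.58), and Gzmm by 1.91 (SE 0.99).

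Of 18 NK cell receptors and regulators measured, 4 were higher and 14 lower (median -0.46). Without WT replicate 1 these counts were 11 and 7, and without KO replicate 4 they were 8 and 10. Cd226, counted as lower, and Klrg1, counted as higher, were well above background on the KO arrays alone. The signalling adaptor Tyrobp, also abundant in macrophages, differed by -1.20 (SE 0.72). Klrd1, which encodes CD94, was at -2.68 and -5.26 in KO, and at -0.79 and -3.30 in WT, a difference of -1.92 (SE 1.26). WT replicate 1 was its highest array and KO replicate 4 its lowest, as for Gzma and Gzmb. The transcription factor Eomes differed by -1.57 (SE 1.03), with a well-measured signal on 1 array of each genotype, and S1pr5, which NK cells use to leave bone marrow, by 1.45 (SE 0.89).

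Among 7 cytokines and receptors that sustain T and NK cells, 3 were higher and 4 lower (median -0.37). Without KO replicate 3 these counts were 4 and 3 (median 0.0091), and without KO replicate 4 they were 1 and 6 (median -0.70). Il18, which drives interferon production by NK cells, differed by -1.60 (SE 0.46) and Il21r by -2.27 (SE 0.87), while Il15ra and Il7 differed by -0.37 (SE 0.39) and 0.21 (SE 0.33). Of 12 lymphocyte trafficking genes 2 were higher and 10 lower (median -1.17), S1pr1 included. The selectin ligand Selplg differed by -1.32 (SE 0.63), the chemokine receptor Cxcr4 by -1.09 (SE 0.66) and Klf2, a factor that drives S1pr1 transcription in T cells and is also active in endothelium, by 0.84 (SE 0.48). Without KO replicate 4, 6 of the 12 were higher and 6 lower.

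**Figure D5:**
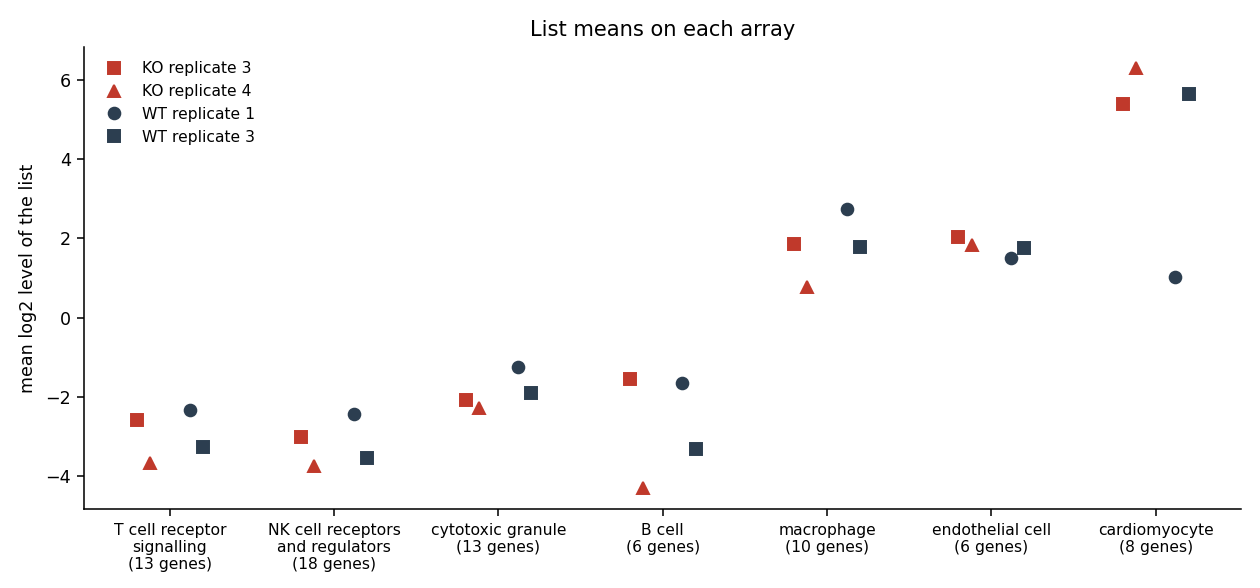
Mean log2 level of the measured genes of 7 lists (vertical axis) on each array, KO in red to the left and WT in dark blue to the right. T cell receptor signalling, NK cell, B cell and macrophage means are all higher on KO replicate 3 and WT replicate 1 than on the other arrays. The macrophage mean is lowest on KO replicate 4 at 0.77, and the cardiomyocyte mean is lowest on WT replicate 1 at 1.03.

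Genes of most like pattern were sought among those well above background on all arrays, by the same root mean square difference over the 4 arrays. They were compared with 2 means that blend unlike patterns. The difference was 1.05 for Cd3d against Cd3e and 1.55 for Nkg7 against Gzmb. A gene close to such a mean need not be close to any 1 gene averaged in it. For the mean of the 3 CD3 chains the closest of 12916 genes were Neto2 (0.051), St8sia4 (0.053), Tmem255a (0.065), Arhgap18 (0.067) and Dapk2 (0.093), where the median over all was 0.53. For the mean of Nkg7, Gzma, Gzmb and Prf1 the closest of 12915 were 1110046J04Rik (0.029), Rab31 (0.030), Fut10 (0.034), Lsm11 (0.035) and C77080 (0.037), with a median of 0.61. None of these belongs to the T cell or NK cell lists, which held only 90 measured genes, so little can be read from it.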

How the data were processed

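Cy3-labelled cRNA from total heart RNA was put on 1-colour Agilent arrays, per the labels' protocols. Per the file headers, Feature Extraction 11.0.1.1 read the spots; the submitters' processing notes give version 9.1. The intensity analysed is the deposited processed signal, background-subtracted and detrended within an array, and the flags for background, saturation and outliers are other deposited values. The authors' value table, used as an alternative, holds log2 values already normalized between arrays; that method is not stated in any source used.

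Control and outlier spots were dropped, log2 spots of 1 probe averaged, and the array's 75th percentile subtracted. A probe counted as well above background where at least 50% of its spots did, and had to do so on 2 or more of 4 arrays, whatever the genotype. The brightest probe stood for its gene. Of 39429 probes, 27234 were named by RefSeq accession (GRCm38.p6 table), since the files hold no gene name column. limma 3.58.1 (R 4.3.3) compared KO with WT, two-sided, with Benjamini-Hochberg adjustment over 22925 features and a threshold of 0.05; it was tested on simulated data. No spot was saturated, and the number of arrays limits precision. Named were the 10 members, S1pr1, up to 4 genes of smallest p per related list and, by rule, genes of like pattern. Foxp3, and the genes said not to be measured, were added after values were seen. The B cell and lymph node stroma genes named under other observations fall under none of these rules. Members and lists were chosen with earlier results of these data known. Promoters were matched for 9 of 10 members, all but Cd4. Alternatives covered scaling, filters, a floor, the authors' values, probe choice, limma's trend and robust options, a threshold of 0.10, single arrays left out and the arrays numbered 3 alone; normexp (offset 50, on median signals) and the dimmest probe were chosen after seeing the data.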

Additional observations from a re-analysis of the deposited data

How the results depend on the processing

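No alternative that could be tested called any of the members or any feature over all, and the lowest adjusted p of a member was 0.266 (limma, Gzma without WT replicate 3). The sign of Cd3d was not settled: its difference was -0.078 with quantile scaling, -0.024 with median scaling, -0.078 with the deposited values and -0.052 with normexp. With one array left out it ranged from -0.69 to 0.85, that of Cd3g from -0.42 to 1.08, that of Cd8a from -0.60 to 0.37 and the median of the members from -0.38 to 0.27. Nkg7 turned to -0.10 with the mean of probes and -0.54 with the dimmest kept probe, which follows from its second probe. The cause of the other reversals was not tested. Between WT replicate 3 and KO replicate 3 alone, KO minus WT was 1.596 for Cd3d, 1.56 for Cd3g, 0.31 for Gzma and 0.06 for Gzmb, with no test. Cd4 and Prf1 kept their sign in 16 of 16 settings. Their KO and WT arrays were separate, so leaving arrays out could not turn the sign. Prf1 has 1 probe, so the choice of probe could not turn it either. Features at an unadjusted p under 0.05 were 174 higher and 663 lower without a filter, 130 and 308 with probes well above background on all 4 arrays, 178 and 206 without WT replicate 1, 2978 and 1361 if WT replicate 3 was dropped, 329 and 967 if KO replicate 3 was, and 67 and 100 if KO replicate 4 was. Where 1 array was left out, the lone array was assumed to vary like the other genotype. Normexp on mean signals was not run, since the files hold no such column. No paired analysis was possible because the genotypes share only replicate number 3. Signal over background limits Klrb1c, Cd8a and the dimmer probes, most of all on WT replicate 1. Cd3d, Cd3g and Gzmb also had levels under the common floor of -4.59 on some arrays. With that floor Cd3d differed by 0.05 (SE 0.37) and Cd3g by 0.03 (SE 0.33).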

Other observations

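The B cell markers Ms4a1 and Cd79b were high and low on the same arrays as Cd3d and Cd3g, and were picked for that after the values were seen. Ms4a1 was at -0.41 and -7.16 on KO replicates 3 and 4, and at -0.84 and -4.13 on WT replicates 1 and 3, and its signal on KO replicate 4 was not well above background. Cd79b was at -0.01 and -3.89 in KO, and at -0.19 and -2.37 in WT. Pax5, another B cell marker, did not share this: it was at -5.97 and -5.91 in KO, and at -6.49 and -6.45 in WT, with a signal well above background on both KO arrays and 1 WT array. None of the 6 measured B cell markers was called by limma (adjusted p of at least 0.741; 0 at an unadjusted p under 0.05).

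Markers of lymphoid organs were also read. Rag1, Rag2 and Ptcra, genes of developing thymocytes, were not measured on at least 2 arrays. Of the lymph node stroma genes 4 were measured, with a higher mean in KO (median 1.06, 0 called). One of them, Glycam1, was well above background on the KO arrays alone, and so entered the count only through the group where it was higher. Madcam1 differed by 0.06 (SE 0.35), and its KO and WT arrays overlapped. Without WT replicate 3 or without KO replicate 4, 3 of the 4 were higher, with medians of 0.39 and 0.66 in that order. Ccl19 was at -3.47 and -2.32 in KO, and at -3.58 and -3.65 in WT, and Cxcl13, which attracts B cells, was at -0.08 and -2.57 in KO, and at -1.19 and -5.69 in WT. Mast cell markers had a median difference of 0.42 (4 of 5 higher in KO, 0 called), and 2 of 5 were higher without WT replicate 3.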
